A study of Rattus norvegicus with 6 samples.

Results

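Of the 101603 distinct accessible sites found by ATAC-seq in rat pancreatic islets, 17111 (16.8%) were distal sites inside genes. They were chosen by position alone: the class given in the deposited annotation was distal, for sites over 10 kb from the start of the nearest gene, and the site lay within that gene. By the deposited distance 1 of these sites was nearer than 10 kb, and by the nearest edge of the site 64 were. Accessibility was measured as the number of Tn5 transposase integrations per site in 3 libraries from adult male Sprague–Dawley rats of around postnatal day 90, 1 rat per library, and in 3 libraries from islets of pups at postnatal day 10 (P10), 1 library per litter, each a mix of a few pups. Male and female pups were raised, and the sexes in each pool are not given. The comparison asked how chromatin accessibility differs between immature and mature islets. To isolate islets, collagenase was injected into the duct of adult pancreases, whereas pooled pup pancreases were shaken in it by hand. Age, sex, islet isolation and single rats against pooled litters therefore cannot be told apart. All libraries came from dissociated, unsorted islet cells. A change in accessibility within a cell type and a change in the share of that cell type thus cannot be told apart either.

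Most DNA inside a long gene is intron, and introns hold many of the enhancers that switch genes on in particular cell types. An enhancer is a stretch of DNA bound by transcription factors; where it is bound, nucleosomes are displaced and the transposase can insert. An enhancer in an intron may act on the gene that holds it or on another gene nearby, and accessibility alone does not tell which. In rat islets the first weeks after birth are the time when β-cells cease to divide often and come to release insulin in response to glucose. The deposited annotation gives gene spans and not exons, so exonic, intronic and UTR positions of the sites are not distinguished here. The sequences of the sites were not analysed here.

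Between 7916919 and 21168463 integrations fell in the sites of a library, more in each P10 library than in any adult one. The median count of a distal site inside a gene was 50, 44 and 33 in the adult libraries and 87, 55 and 74 in the P10 libraries. Levels are given below as counts per 1000000 integrations (CPM) after TMM scaling, and differences as log2 of adult over P10, so that a positive value means more integrations in adults. A site is called Up or Down at p under 0.05 and a false discovery rate under 0.2 in edgeR's quasi-likelihood test over all 101603 sites. The tissue label was checked at the start sites of 7 islet genes, and these were mixed. The site of Ins1, an insulin gene, ranged from 75.1 to 203 CPM and exceeded 99.1% of sites at gene starts, and those of the islet factors Nkx6-1 and Neurod1 exceeded 79.1% and 77.3%. The other four lay below the median gene start: Gcg (glucagon) exceeded 40.7% of start sites, Pdx1 30.3%, Ins2, the other insulin gene (4.25 to 17.7 CPM), 27.2%, and Sst (somatostatin) 6.84%.

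The 17111 sites lay in 4673 genes, of which 1825 held 1 site and 378 held 10 or more. The latter genes held 35.1% of the sites. Nearly all sites (99.2%) were in protein-coding genes by RefSeq. Genes holding such sites had a median length of 66.2 kb. The distance to the start of the gene had a median of 52.9 kb and quartiles of 24.8 and 123 kb. No site was nearer to the start of another listed gene than to its own, which follows from the annotation to the nearest gene. The median width was 353 bp, against 354 bp for distal sites outside genes, and the median level was 4.22 CPM against 4.01 CPM. Sites at gene starts had a median of 16.7 CPM. The position inside a gene depends on the annotated span: 43 sites were in 19 spans that wholly contained 10 or more other listed genes, and 13.3% of the distal sites annotated as outside their nearest gene had their midpoint in the span of some other listed gene.

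More distal sites inside genes gained than lost accessibility in adults. Of the 17111 sites, 2926 (17.1%) were Up and 1136 (6.64%) were Down, whereas over all sites 12.3% were Up and 6.63% were Down. The paper reports the opposite balance over all sites at the same limits, with more sites less accessible in adults. Why these balances differ was not tested. Distal sites outside genes were Up in 12.99% (upstream of the nearest gene) and 12.7% (downstream), and sites at gene starts in 2.73%. All adult libraries exceeded all P10 libraries at 3119 sites inside genes (18.2%, against 13.8% of all sites), and all lay below them at 1787 (10.4%, against 10.9%). The median change was 0.89 among Up sites and -0.96 among Down sites on the log2 scale. Among the Up sites 1117 exceeded a log2 change of 1, and 506 Down sites were under -1. Without P10 replicate 2 the counts were 1844 Up and 590 Down, and without P10 replicate 3 Down fell to 680.

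These calls are relative to the bulk of sites. With TMM scaling the median log2 change was -0.01 over all sites and 0.05 over distal sites inside genes. Scaling to column sums moved these medians to -0.10 and -0.05 and gave 2480 Up and 1690 Down sites, so that 59.5% of the called sites were Up in place of 72.0%. Scaling to the total reads sequenced moved them to -0.84 and -0.79 and gave 234 Up and 9249 Down sites. These scalings shift all sites nearly alike, so the distance between the medians hardly moves (0.05). Cyclic loess, which does not, gave medians of -0.03 and 0.03, 0.06 apart.

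Summed over each library, distal sites inside genes took 12.6%, 12.02% and 12.4% of all integrations in the adult libraries and 11.7%, 11.0% and 11.3% in the P10 libraries. All adult shares lay above all P10 shares. The means were 12.3% ± 0.281 and 11.3% ± 0.330 (SD, n = 3 each), a difference of 0.989 percentage points (two-sided exact permutation test, p = 0.1, the smallest that 3 against 3 libraries allow). Set against distal sites outside genes, the log2 ratio of integrations was -2.01, -2.15 and -2.10 in adults and -2.07, -2.20 and -2.19 at P10. Here the groups overlapped, and the difference of 0.06 was smaller than the SD within either group (exact permutation p = 0.3). Set against the sites at gene starts, the log2 ratio was -1.07, -1.05 and -1.02 in adults and -1.29, -1.37 and -1.28 at P10 without overlap, a difference of 0.27 (exact permutation p = 0.1). Against proximal sites inside genes it was 1.81, 1.86 and 1.93 in adults and 1.71, 1.79 and 1.84 at P10, which overlapped (difference 0.09, exact permutation p = 0.2). Over these 4 comparisons, no p can fall below 0.1 before or after adjustment.

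**Figure D1:**
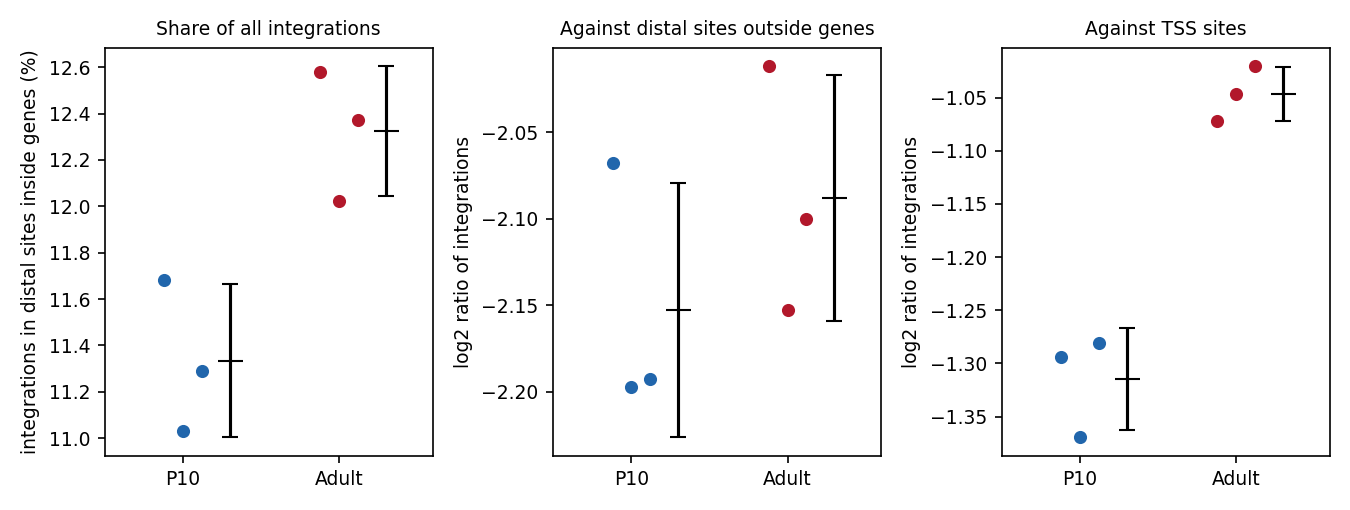
Integrations in distal sites inside genes per library, as a percentage of all integrations (left), as log2 ratio to distal sites outside genes (middle) and as log2 ratio to TSS sites, those at gene starts (right). Points are libraries and bars beside them the mean ± SD of 3. The adult shares (12.02 to 12.6%) lie above the P10 shares (11.0 to 11.7%), and so do the ratios to TSS sites, whereas the ratios to distal sites outside genes overlap. Axes do not start at 0.

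The share of sites called Up rose with their level. Among the 695 sites inside genes under 1 CPM, 0.144% were Up and 10.4% Down. Between 4 and 8 CPM 21.03% were Up and 6.12% Down, and at 16 CPM or more 38.2% of 1504 sites were Up and 3.19% Down. Distal sites outside genes had the same order, from 0.150% Up under 1 CPM to 26.3% of 6753 sites at 16 CPM or more. In each of the 5 bins from 1 CPM upwards the Up share was higher inside genes than outside, by the most in the highest bin. The median log2 change rose along the same bins, from -0.33 to 0.30 inside genes and from -0.24 to 0.17 outside. The median standard error of the log2 change fell along them, from 0.51 to 0.20 inside genes. The part of the standard error in the trend was not tested. Peaks were called on the pooled libraries of each age, and each P10 library held more integrations than any adult one. A faint site could thus enter the set through the P10 libraries alone. How far this shaped the bins of low level was not tested.

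**Figure D2:**
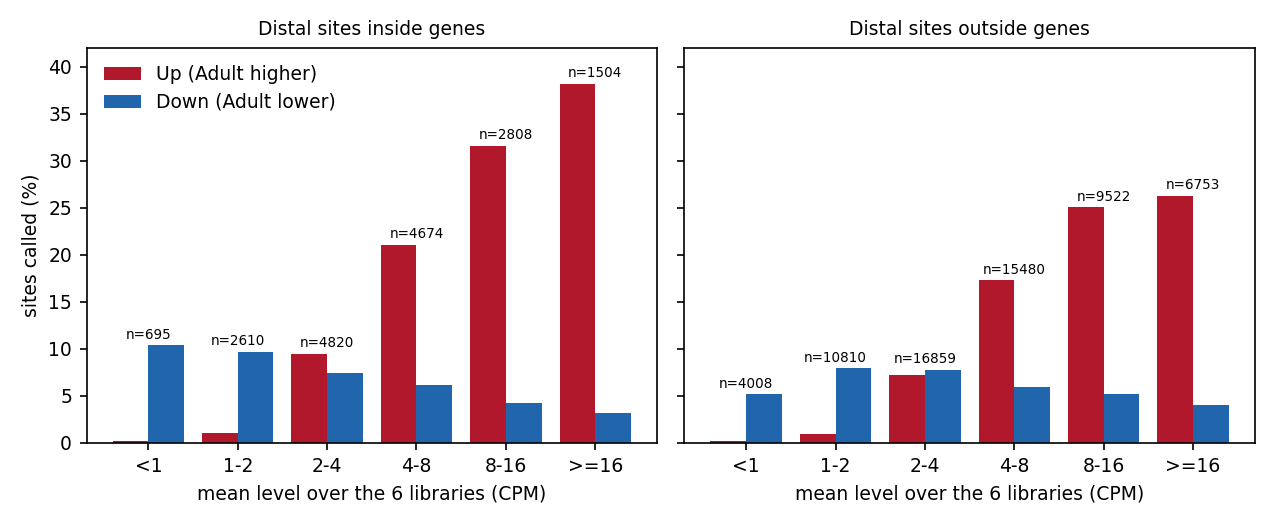
Percentage of sites called Up (red) and Down (blue) by mean level over the 6 libraries in CPM, for distal sites inside genes (left) and outside genes (right), with the number of sites in each bin above the bars. Up calls reach 38.2% inside genes and 26.3% outside in the highest bin, and Down calls are fewest there.

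Where in the gene a site lay made little difference to the Up share. The Down share was 8.06% in the last of 5 equal parts of the gene and between 6.11% and 6.71% in the others. The Up share was between 15.9% and 18.9% in every range of distance to the gene start, from under 20 kb to over 500 kb, and between 15.6% and 17.7% in each of 5 equal parts of the gene from start to end. Just across the 10 kb limit, the 2056 proximal sites inside genes at 5 to 10 kb were Up in 16.8% and Down in 6.03%, against 16.5% and 6.37% of the distal sites within 20 kb. Proximal sites inside genes under 5 kb were Up in 13.4%. The Up share ranged from 14.7% in genes of over 1000 kb to 18.5% in genes of 200 to 500 kb. Narrow sites of under 250 bp were Up in 13.9% and sites of 500 to 1000 bp in 21.7%, with median levels of 1.88 and 10.6 CPM. The 150 sites of 1000 bp and more were Up in 16.7%, at a median level of 24.4 CPM.

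The sites described next were chosen for a small p and for groups that do not overlap. The Up site with the smallest p was in Mrs2, which encodes the magnesium channel of the inner mitochondrial membrane. It lies on chromosome 17 from 43949035 to 43949414 (Rn5), 16.9 kb from the start of the 17.9 kb gene and 683 bp from its end. It had 55.0, 43.9 and 45.1 CPM in adults and 6.65, 6.85 and 8.35 CPM at P10. The adult libraries were 6.59-fold higher on average (log2 change 2.72 ± 0.19 SE, edgeR adjusted p = 3.82e-09).

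Other strongly Up sites lay deep within genes. A site in Cacna1e, the R-type calcium channel subunit, on chromosome 13 from 76910054 to 76910532, is 396 kb from the gene start. It had 37.7, 27.0 and 32.2 CPM in adults and 7.30, 6.63 and 6.87 CPM at P10 (log2 change 2.22 ± 0.20 SE, edgeR adjusted p = 9.95e-08). The lowest adult value was over the highest P10 value by a wide margin. In Wdr7, whose product works with the vesicular proton pump, the site on chromosome 18 from 58395015 to 58395409 had 26.9, 26.2 and 25.5 CPM in adults, nearly equal, and 2.97, 3.28 and 5.55 CPM at P10 (log2 change 2.73 ± 0.24 SE, edgeR adjusted p = 6.34e-08).

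A site in Ntm (neurotrimin, a neural adhesion protein) on chromosome 8 from 30082699 to 30083167 had 25.8, 16.9 and 29.8 CPM in adults and 3.39, 1.498 and 3.22 CPM at P10. Its log2 change of 3.12 ± 0.28 SE (edgeR adjusted p = 7.15e-08) was the largest among the 10 Up sites named here. In Klf12, a transcriptional repressor of the Krüppel-like family, the site on chromosome 15 from 88191281 to 88191878 had 28.1, 23.9 and 30.8 CPM in adults and 5.62, 6.56 and 7.24 CPM at P10 (log2 change 2.09 ± 0.21 SE, edgeR adjusted p = 3.59e-07). The adults spread more at the Ntm site.

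The other Up sites with the smallest p were in Rdh7 (a retinol dehydrogenase, log2 change 2.81 ± 0.25 SE, in a deposited span of 237 kb that holds 3 other listed genes), Ggh (gamma-glutamyl hydrolase, which trims folates, 2.52 ± 0.23), Dync2h1 (the motor of transport within cilia, 2.55 ± 0.24), Lrrtm3 (a synaptic adhesion protein, 2.36 ± 0.23) and Tmem55a (a phosphoinositide phosphatase, 2.01 ± 0.20). Among these the Ggh site varied most between adults, at 45.6, 23.4 and 40.0 CPM, against 6.09, 5.56 and 7.30 CPM at P10. Leaving out any 1 of the 6 libraries kept all 10 of these calls.

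Sites that lost accessibility in adults were weaker in level. The Down site with the smallest p was in Acss3, a short-chain acyl-CoA synthetase, on chromosome 7 from 49216220 to 49216714, 48.7 kb from the gene start. It had 0.813, 2.63 and 0.387 CPM in adults, which is 9, 27 and 3 integrations, and 7.39, 10.7 and 10.6 CPM at P10. Every adult library was under the P10 range (log2 change -2.85 ± 0.39 SE, edgeR adjusted p = 1.85e-05).

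Ppp1r14c encodes an inhibitor of protein phosphatase 1. Its site on chromosome 1 from 41210618 to 41211296 was the strongest of the 9 Down sites named, with 20.7, 17.0 and 19.1 CPM in adults and 44.9, 42.8 and 47.7 CPM at P10. The replicates were tight in both groups (log2 change -1.25 ± 0.17 SE, edgeR adjusted p = 1.90e-05). In Pde3b, a phosphodiesterase that lowers cyclic AMP, the site on chromosome 1 from 190935296 to 190935799 had 1.08, 1.46 and 1.68 CPM in adults and 9.25, 4.21 and 6.03 CPM at P10 (log2 change -2.23 ± 0.36 SE, edgeR adjusted p = 0.000126). The P10 litters differed here among themselves, all above the adults.

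Rgs20, a regulator that shortens G protein signals, held a site on chromosome 5 from 19226134 to 19226701 with 5.78, 5.84 and 4.25 CPM in adults and 12.2, 14.7 and 15.4 CPM at P10 (log2 change -1.40 ± 0.24 SE, edgeR adjusted p = 0.000287). Further Down sites were in Galnt3 (an enzyme of O-glycosylation, -2.01 ± 0.33 SE), Dlg2 (a synaptic scaffold, -1.64 ± 0.29), Slc24a3 (a sodium, calcium and potassium exchanger, -1.65 ± 0.30), Sema3e (a guidance signal, -2.003 ± 0.38) and Cd47 (a surface protein that restrains phagocytes, -1.09 ± 0.21). These 9 calls, too, were kept whichever library was left out.

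**Figure D3:**
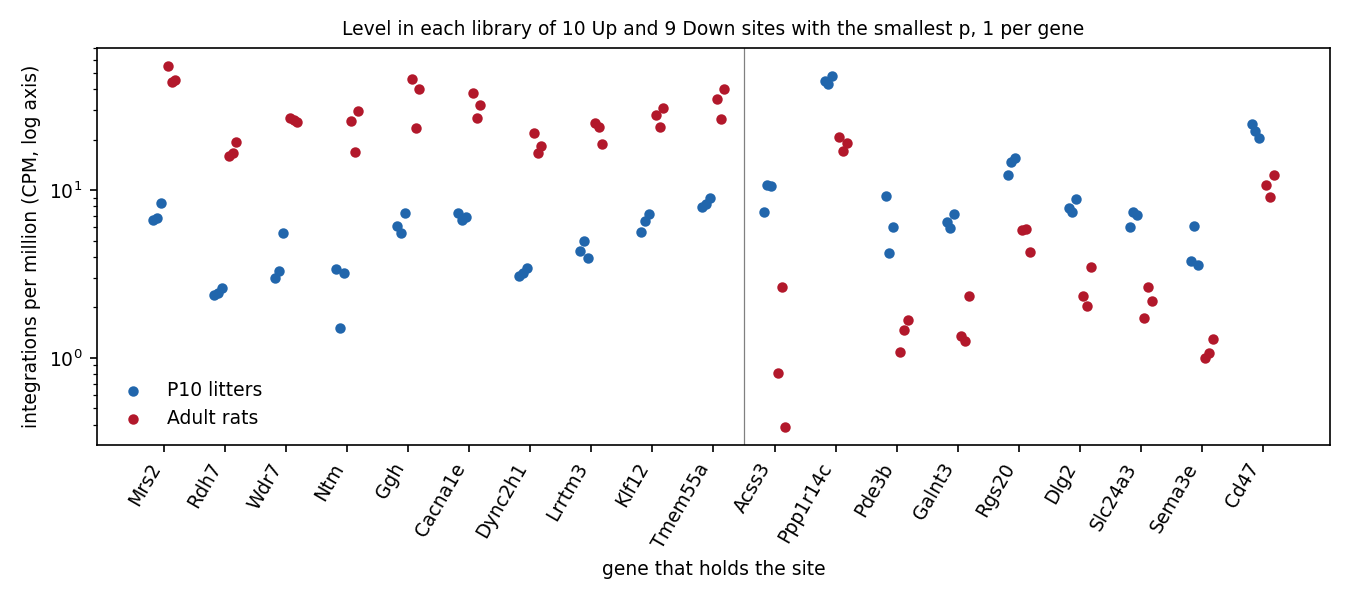
Level of 10 Up (left of the line) and 9 Down (right) distal sites inside genes among those with the smallest p, 1 per gene, chosen among sites whose groups do not overlap. Each point is 1 library, blue for P10 and red for adult, on a log axis in CPM. The Up sites reach 15.9 to 55.0 CPM in adults, and 6 of the 9 Down sites stay under 4 CPM in adults.

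The strongest distal sites inside genes were of a different kind. The first, in LOC100359514, had 604, 986 and 734 CPM in adults and 592, 795 and 761 CPM at P10. A second site of this gene had 424, 638 and 524 CPM in adults and 411, 516 and 515 CPM at P10, and a further one 186, 293 and 215 against 200, 240 and 267 CPM. The groups overlapped at all 3. The other 7 were 2 in Vom2r37 (a vomeronasal receptor gene) and 1 each in Tbc1d5 (endosome recycling), Phka2 (phosphorylase kinase), St3gal4 (a sialyltransferase), Insr (the insulin receptor) and Spin2a. In all 10, adult replicate 5 had the highest adult value, and 1 site in Vom2r37 was called Up (log2 change 0.50 ± 0.18 SE, edgeR adjusted p = 0.0767). There the groups overlapped, and the call was lost without adult replicate 5 (0.19) or P10 replicate 3 (0.48) and with total reads (-0.33). The Insr site had 141, 255 and 64.2 CPM in adults and 70.0, 120 and 146 CPM at P10. Its groups overlapped, with means of 153 ± 96.2 and 112 ± 38.6 CPM (SD, n = 3 each). Together the 10 took between 1.75% and 3.21% of the integrations in distal sites inside genes.

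LOC100359514 also held the most sites, 143 in an annotated span of 3846 kb on chromosome 7, with 21 Up and 1 Down. The median gene holding such sites spans 66.2 kb, and whether a single gene covers so long a span was not tested. Next came Robo1, an axon guidance receptor, with 60 sites (13 Up, 2 Down), Schip1 with 47 (11 and 3), Gpc5, a cell-surface proteoglycan, with 45 (4 and 6) and Pcdh9, a protocadherin, with 43 (9 and 3). Utrn (utrophin) held 42 sites with 4 Up and 3 Down, Lrp1b 40 with 7 and 6, Tbc1d5 38 with 4 and 1, LOC100910057 37 with 10 and 5, and Csmd1 36 with 7 and 4. In Gpc5 the log2 changes of single sites ran from -3.28 to 2.32. Beside these counts, 17.1% of all distal sites inside genes were Up and 6.64% Down, and 12.3% and 6.63% of all sites. No gene's counts were tested against these shares.

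Of the genes holding sites, 2144 had at least 1 called site and 866 at least 2, and among the latter 385 (44.5%) had both Up and Down sites, 409 had Up sites alone and 72 Down sites alone. As 72.0% of all called sites were Up, some mixing within genes arises from the overall shares, and no excess over them was tested. Adjacent sites of the same gene less than 1 kb apart had log2 changes with r = 0.20 across 1432 pairs, and those 5 to 20 kb apart r = 0.08 across 5436 pairs. For distal sites outside genes the values were 0.24 and 0.09. The members of a pair share libraries and sequencing depth, and these correlations are a description.

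When the integrations of all distal sites inside a gene were summed, 980 of 4673 genes (20.97%) were Up and 244 (5.22%) Down, beside 11.5% and 6.86% of all 30655 sums per gene and class of site. The counts were 535 and 117 without P10 replicate 2, 593 Up without adult replicate 4, and 464 Down with column sums. Among genes with at least 3 such sites, the smallest p belonged to Lgr5, the R-spondin receptor that marks stem cells of several epithelia. Its 4 sites summed to 55.5, 46.1 and 52.6 CPM in adults and 18.8, 19.7 and 24.2 CPM at P10. The log2 change was 1.30 ± 0.16 SE (edgeR adjusted p = 2.47e-05), and the site at the start of Lgr5 had a log2 change of 0.10 ± 0.18 SE.

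Cftr, the chloride channel of duct and other epithelial cells, held 3 sites with sums of 63.3, 45.3 and 68.3 CPM in adults and 21.1, 21.8 and 29.1 CPM at P10 (log2 change 1.29 ± 0.17 SE, edgeR adjusted p = 7.48e-05). Its start went the other way, with a log2 change of -0.73 ± 0.22 SE (edgeR adjusted p = 0.0470). All adult sums exceeded all P10 sums. Other Up genes of this kind were Rnf150 (0.98), Actr3, a subunit of the actin-branching complex (1.52), Slc24a4, a calcium exchanger (0.96), Hs3st5, a heparan sulfate sulfotransferase (1.33), and Spats2l (1.05). Of their single sites, 1 of 3 was Up in Cftr and in Actr3, and 1 of 4 in Slc24a4. In Lgr5 2 of 4 were Up, in Spats2l 2 of 3, in Hs3st5 3 of 4 and in Rnf150 4 of 5. None was Down.

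Of the summed genes with at least 3 sites that were Down, RGD1306186 had the smallest p (log2 change -1.03 ± 0.18 SE, edgeR adjusted p = 0.00135). Papss1 makes the sulfate donor of the cell. Its 4 sites, 3 of them Down, summed to 8.86, 7.89 and 10.4 CPM in adults and 18.5, 18.3 and 18.8 CPM at P10 (log2 change -1.04 ± 0.20 SE, edgeR adjusted p = 0.00237). The P10 litters were nearly equal and all above the adults. In Lphn2, an adhesion G protein-coupled receptor, 5 of 10 sites were Down and none Up, with a summed log2 change of -0.53 ± 0.15 SE (edgeR adjusted p = 0.0292), and in Slc24a3 4 of 8 sites were Down (-0.60 ± 0.14, edgeR adjusted p = 0.0135). The others were Ism1 (-1.10), Vps13b (-0.72), Pde3b (-0.91) and Rasgrf1 (-0.65).

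Accessibility inside a gene and at its start was then compared within each library, as the log2 ratio of the gene's distal sites inside to its own TSS sites. This ratio does not depend on scaling between libraries. Among 2650 genes with a mean of at least 50 integrations in both sums, the ratio rose in adults in 821 (31.0%) and fell in 139 (5.25%) in limma's test, and the median difference was 0.23. These shares are themselves the background of this comparison, since all genes tested held such sites. The median log2 change was 0.16 inside and -0.05 at the start. Of all sites at gene starts, 2.73% were Up and 7.87% Down. Distal sites outside genes were Up in 12.99% (upstream) and 12.7% (downstream). No such ratio was formed for distal sites outside genes, so the rise is not shown to be particular to sites inside genes. Of the 685 tested genes whose distal sites inside summed to an Up call, 35 were Up at their start as well, 619 were not called there and 31 were Down. Across the 2650 genes the log2 changes inside and at the start had Pearson's r = 0.19 and Spearman's rho = 0.20, values that share libraries and depth and stand as a description. With proximal in place of TSS sites as reference, 344 genes rose and 230 fell.

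The starts against which inner sites moved are shown for the first 2 rising and the first 2 falling genes with 1 entry in the RefSeq promoter table of GRCr8, from 250 bases before to 50 after the gene start. Of the 12 genes named for this ratio, 7 had 1 entry, 1 had more and 4 had none. The build differs from that of the sites, so the windows show the gene start and not a measured site. Capitals mark matches, on either strand, to the hexamer GGGCGG, known as the GC box. They also mark the CCAAT box, whose letters are those of its name. The 6 letters TATAAA were searched on both strands as well, and none of these 4 windows holds them. No match overlaps one of another motif. The 2 rising genes come first.
Mrs2 (chr17:40491758-40492057, GRCr8, plus strand): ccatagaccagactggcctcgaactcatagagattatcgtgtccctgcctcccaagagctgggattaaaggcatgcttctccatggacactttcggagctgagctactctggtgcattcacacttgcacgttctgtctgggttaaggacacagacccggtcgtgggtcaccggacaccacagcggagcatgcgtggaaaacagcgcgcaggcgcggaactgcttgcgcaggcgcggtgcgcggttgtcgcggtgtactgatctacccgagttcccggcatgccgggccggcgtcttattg
Actr3 (chr13:39396460-39396759, GRCr8, minus strand): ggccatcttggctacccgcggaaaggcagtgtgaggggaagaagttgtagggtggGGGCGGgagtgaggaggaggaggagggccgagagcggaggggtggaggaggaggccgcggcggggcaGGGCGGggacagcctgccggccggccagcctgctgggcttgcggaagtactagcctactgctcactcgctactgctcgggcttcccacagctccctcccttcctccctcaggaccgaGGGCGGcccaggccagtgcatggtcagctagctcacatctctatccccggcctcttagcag
Papss1 (chr2:222714180-222714479, GRCr8, plus strand): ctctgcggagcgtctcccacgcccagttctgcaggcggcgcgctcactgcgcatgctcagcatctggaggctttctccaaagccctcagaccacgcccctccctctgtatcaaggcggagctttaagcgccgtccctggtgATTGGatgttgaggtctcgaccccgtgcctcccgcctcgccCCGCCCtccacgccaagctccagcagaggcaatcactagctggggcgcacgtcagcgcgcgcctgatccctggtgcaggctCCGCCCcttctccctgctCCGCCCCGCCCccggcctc
Hsd17b4 (chr18:45515177-45515476, GRCr8, plus strand): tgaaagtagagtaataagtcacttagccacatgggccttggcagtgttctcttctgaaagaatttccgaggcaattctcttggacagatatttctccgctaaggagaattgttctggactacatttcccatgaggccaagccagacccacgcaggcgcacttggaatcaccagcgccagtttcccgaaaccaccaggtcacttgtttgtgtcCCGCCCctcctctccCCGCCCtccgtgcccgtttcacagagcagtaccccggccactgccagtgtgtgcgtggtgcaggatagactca

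The window of Mrs2 is 59.3% G and C with 25 CpG dinucleotides and that of Actr3 68.0% with 17. The windows of Papss1 and Hsd17b4 are 68.3% with 26 and 54.0% with 12. Over the 33469 promoters of the table the medians are 51.7% and 7. The GC box is in 33.1% of those promoters and 3 of these 4, the CCAAT box in 37.5% and in Papss1 alone here, and TATAAA in 14.2%. All 4 windows are thus richer in CpG than the median promoter, on both the rising and the falling side.

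In Mrs2 the log2 ratio of the inner site to the start was -0.03, 0.06 and -0.20 in adults and -2.51, -2.56 and -2.38 at P10 (difference 2.43 ± 0.17 SE, limma adjusted p = 3.44e-08). The start itself averaged 50.1 CPM in adults and 40.7 CPM at P10 and was not called, with a log2 change of 0.30 ± 0.15 SE. Ggh had ratios of 0.62, 0.33 and 0.31 in adults and -1.75, -2.25 and -1.75 at P10 (difference 2.34 ± 0.20 SE, limma adjusted p = 4.20e-07). In both genes the inner sites were near or above the level of the start in adults and several-fold under it at P10.

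The ratio also rose in Kdm3a, a histone demethylase (difference 2.105), Actr3 (1.56), Cftr (1.98) and Ppm1k, a mitochondrial phosphatase of branched-chain amino acid breakdown (1.76). Their starts had log2 changes of -0.12, -0.08, -0.73 and -0.13, of which only that of Cftr was called. Among the falling genes, Papss1 had ratios of -3.62, -3.52 and -3.32 in adults and -2.27, -2.32 and -2.31 at P10 (difference -1.19 ± 0.15 SE, limma adjusted p = 7.03e-05). Snap91, a clathrin assembly protein of nerve endings (-1.22), and Rgs20 (-1.47) fell too, with inner sites called Down and starts not called.

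In Ankrd55 (difference -1.27 ± 0.24 SE, limma adjusted p = 0.00123) and Ldb3, a muscle Z-disc protein (-1.06 ± 0.21, limma adjusted p = 0.00154), the start was called Up and the inner sites were not called. The inner sites of Ldb3 averaged 107 CPM in adults and 89.5 CPM at P10, a log2 change of 0.25 that was not called, while its start rose from 3.55 to 8.99 CPM (log2 change 1.33 ± 0.27 SE, edgeR adjusted p = 0.00432). Hsd17b4, a peroxisomal enzyme of fatty acid oxidation, had a difference of -0.70 against its start, which turned to 0.09 against its proximal sites.

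**Figure D4:**
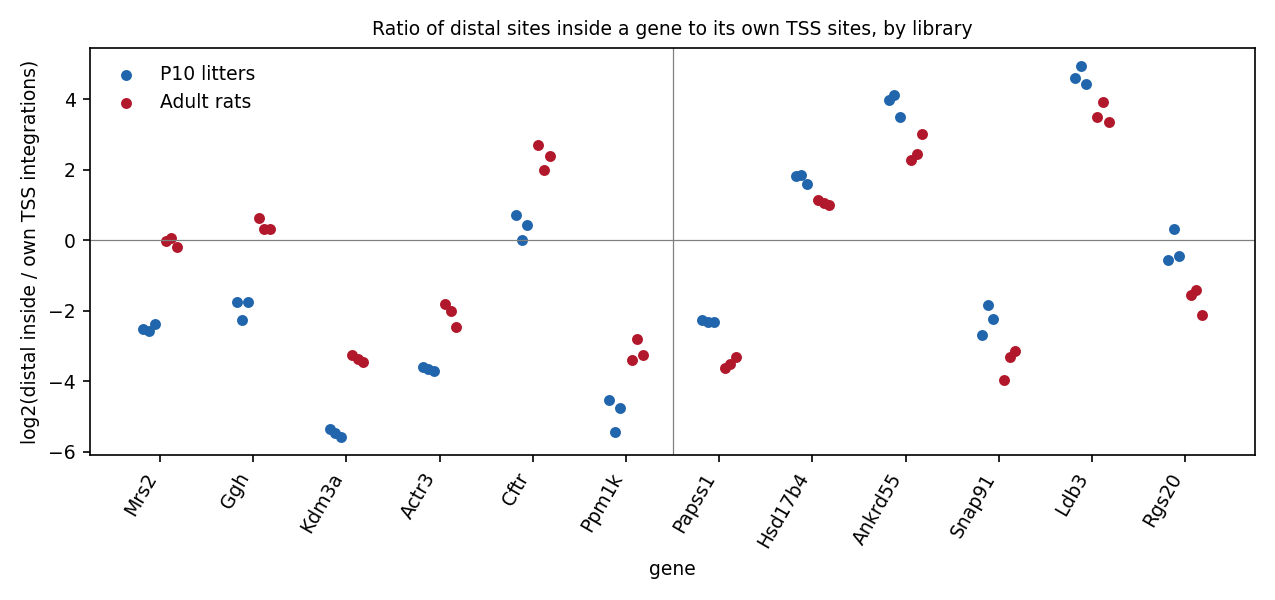
Log2 ratio of integrations in distal sites inside a gene to those in its own TSS sites, for the 6 rising (left of the line) and 6 falling (right) genes with the smallest p. Each point is 1 library, blue for P10 and red for adult, and 0 means equal integrations. The groups do not overlap in any of the 12 genes, which were chosen for a small p. The inner sites of Mrs2 go from a mean of -2.48 at P10 to -0.06 in adults.

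Genes of islet function were taken as lists, and for each the distal sites inside its genes are counted beside the 12.3% Up and 6.63% Down of all sites. The nearer background is that of all distal sites inside genes, 17.1% Up and 6.64% Down. Direction is by TMM scaling throughout, and every median given below was under -0.6 with the total reads as library sizes. The example sites are the called ones with the smallest p, so that their groups lie apart by choice. Voltage-gated calcium channels open the way for the calcium that triggers insulin release: 13 genes held 107 sites, of which 22 were Up and 8 Down (median log2 change 0.11). Cacna1a had 3 Up of 5 sites, Cacna2d1 5 Up and 3 Down of 19, and Cacna1e 4 Up and 2 Down of 9. A further Up site of Cacna1e, 50.9 kb from the gene start, had 5.15, 5.16 and 7.35 CPM in adults and 1.58, 2.07 and 2.22 CPM at P10 (log2 change 1.58 ± 0.31 SE, edgeR adjusted p = 0.00130). The Down sites with the smallest p were in Cacna2d3 (log2 change -1.003 ± 0.26 SE) and Cacna1c (-1.02 ± 0.29), the main L-type subunit, which had 2 Up and 1 Down of 22.

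Potassium channels set the resting potential and end the action potential. Of 152 sites in 27 genes, 30 were Up and 12 Down (median 0.13). Kcnma1, the large-conductance calcium-activated channel, had 10 Up and 1 Down of 36 sites. Kcnd3, a transient outward channel, had 3 Up of 6, the first at 33.6, 26.0 and 23.3 CPM in adults against 9.85, 9.63 and 11.8 CPM at P10 (log2 change 1.41 ± 0.20 SE, edgeR adjusted p = 3.81e-05). Adults were all above P10 there. Down sites included those in Kcnq5 (-1.47 ± 0.37 SE) and Kcnj3 (-1.20 ± 0.36). The 2 sites inside Abcc8, the sulfonylurea receptor, were not called.

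Of 168 sites in 35 genes of vesicle priming and exocytosis, 32 were Up and 14 Down (median 0.01). Erc2, a scaffold of the release zone, held a site with 22.2, 22.1 and 18.9 CPM in adults and 5.35, 4.99 and 5.18 CPM at P10 (log2 change 2.03 ± 0.22 SE, edgeR adjusted p = 7.99e-07). A site in Syt13, an atypical synaptotagmin, had 17.7, 11.8 and 9.67 CPM in adults and 3.77, 1.07 and 1.90 CPM at P10 (2.50 ± 0.33 SE, edgeR adjusted p = 1.18e-05). Rims2 had 4 Up of 14 sites and Cadps 3 Up of 11. Down sites were in Rims1 (-1.08 ± 0.25 SE) and in Snap25 (-0.84 ± 0.21), a SNARE of the fusion machinery, in which 2 of 6 were Down and none Up.

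Granule proteins and prohormone processing had 128 sites in 13 genes, 21 Up and 13 Down (median -0.02). The zinc transporter Slc30a8, which loads insulin granules, had a site with 69.1, 40.3 and 56.3 CPM in adults and 27.8, 19.6 and 25.3 CPM at P10 (log2 change 1.19 ± 0.19 SE, edgeR adjusted p = 0.000129). The lowest adult stood above the highest litter, though the adults differed widely. Cpe, the carboxypeptidase that trims prohormones, had 5 Up of 15 sites, and Ptprn2, a granule membrane protein, 7 Up and 2 Down of 31, with a first site at a log2 change of 1.77 ± 0.28 SE. The sorting receptors Sorcs3 and Sorcs1 gave the Down sites with the smallest p (-1.37 ± 0.29 and -1.42 ± 0.33 SE), and each had 3 Down sites.

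Cyclic AMP amplifies insulin release. Its list had 192 sites in 31 genes, 37 Up and 19 Down (median 0.03), with both directions in 11 genes. The Up sites with the smallest p were in Pde3a (log2 change 1.28 ± 0.19 SE) and in Prkar2b, a regulatory subunit of protein kinase A (1.57 ± 0.23), and the Down sites in Pde3b, described above, and Pde4b (-1.30 ± 0.28). Single sites did not stand for their genes: Pde3a had 1 Up and 2 Down of 12 sites, and Pde4b 4 Up and 2 Down of 22. Creb3l2 had 5 Up of 9 sites and Pde10a 4 Up of 7, neither with a Down site.

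Islet transcription factors had 283 sites in 30 genes, 39 Up (13.8%) and 21 Down (7.42%), with a median of 0.06. These shares were near those of all sites, and the Up share was under the 17.1% of all distal sites inside genes. Bach2, a repressor, held sites that moved in opposite directions. The site 60.5 kb from its start had 13.5, 13.7 and 14.6 CPM in adults and 6.79, 5.21 and 4.97 CPM at P10 (log2 change 1.29 ± 0.23 SE, edgeR adjusted p = 0.000507), and the site 35.4 kb from it had 4.43, 3.41 and 3.61 against 9.44, 10.3 and 9.73 CPM (-1.35 ± 0.26 SE, edgeR adjusted p = 0.000888). Tox had 6 Up and 1 Down of 22 sites and Esrrg 3 Up of 7. Nfia and Nfib, factors of the nuclear factor I family, had 5 Down of 11 and 2 Down of 9 with none Up. Further examples were Meis1 (1.72 ± 0.30 SE) and, at 0.181, 0.292 and 0.387 CPM in adults and 2.05, 1.28 and 0.899 CPM at P10, a faint site in Rfx3 (-2.32 ± 0.57 SE). The Rfx3 site rests on 2, 3 and 3 adult counts, and with DESeq2 it was not called.

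Growth factor receptors and cell cycle genes had 168 sites in 27 genes, 28 Up and 17 Down (median -0.01). Egfr had 6 Up of 15 and none Down. Igf1r, the receptor of insulin-like growth factor 1, had 4 Up and 1 Down of 21, the first with 23.7, 15.6 and 14.8 CPM in adults and 5.48, 4.14 and 6.45 CPM at P10 (log2 change 1.75 ± 0.25 SE, edgeR adjusted p = 2.69e-05). A site in Met, the hepatocyte growth factor receptor, had a log2 change of 0.92 ± 0.17 SE. Igf2bp2, an RNA-binding protein of fetal and growing tissue, had 5 Down and 1 Up of 10 sites. Its first 2 Down sites had 2.62, 2.34 and 2.32 CPM against 7.90, 8.70 and 5.02 (-1.56 ± 0.31 SE, edgeR adjusted p = 0.00112), and 2.26, 1.85 and 1.16 against 7.44, 6.13 and 4.02 CPM (-1.71 ± 0.34 SE, edgeR adjusted p = 0.00139). All litters were above all adults at both.

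Nuclear receptors had 91 sites in 16 genes, 11 Up and 4 Down (median -0.02). Of the Up sites 6 were in Thrb, the thyroid hormone receptor β, which held 23 sites and no Down site. The first had 7.59, 6.23 and 6.32 CPM in adults and 2.84, 2.85 and 2.54 CPM at P10 (log2 change 1.29 ± 0.28 SE, edgeR adjusted p = 0.00322). The Down examples in Nr5a2 (-1.42 ± 0.53 SE) and Vdr (-0.98 ± 0.38) lost their call when adult replicate 6 was left out (-1.09 and -0.94), as did Nr5a2 without P10 replicate 2 (-1.42) and Vdr without adult replicate 4 (-0.97) or P10 replicate 1 (-0.42). Nr5a2 was not called with DESeq2, Vdr not with limma voom, and neither with cyclic loess.

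Synaptic adhesion and axon guidance genes are long, and 53 of them held 673 sites, 109 Up (16.2%) and 69 Down (10.3%), with a median of 0.01. Of these genes 23 had both directions. Besides Robo1 and Ntm, Lrrtm4 had a site with 30.5, 23.7 and 31.1 CPM in adults and 6.79, 11.1 and 9.89 CPM at P10 (log2 change 1.62 ± 0.22 SE, edgeR adjusted p = 1.18e-05). Dcc, the netrin receptor, had 5 Up of 7 sites and no Down. Dlg2 had 7 Down and 2 Up of 21, Tenm3 6 Down and 3 Up of 26, and Lrrc4c 4 Down of 11.

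The 2 smaller lists were glucose sensing and mitochondrial metabolism and the circadian clock. The former had 54 sites in 18 genes, 8 Up and 4 Down (median -0.06), and beside Mrs2 an Up site in Micu2, a subunit of the mitochondrial calcium uniporter (log2 change 1.80 ± 0.26 SE), whose pore gene Mcu had 2 Up of 3. The Down sites in Acly (-1.10 ± 0.40 SE) and Gpd2 (-0.76 ± 0.30) lost their call in some fits without 1 library, Acly without adult replicate 4 (-0.89) or P10 replicate 1 (-0.77), and Gpd2 without adult replicate 4 (-0.73), P10 replicate 2 (-0.72) or P10 replicate 3 (-0.76). Clock genes had 14 sites in 4 genes, 3 Up and 0 Down (median 0.12). Npas2, itself a clock activator, had 26.1, 29.4 and 31.2 CPM in adults and 10.8, 8.56 and 10.1 CPM at P10 at its first site (1.55 ± 0.20 SE, edgeR adjusted p = 7.21e-06). The Up site in Rorb (0.80 ± 0.24 SE) was not called without adult replicate 4 (0.55).

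Sites inside marker genes of cell types moved as well, in small numbers. Alpha-cell markers had 20 sites in 5 of 11 genes, 1 Up and 6 Down (median -0.46), and their summed level was 121 to 137 CPM in adults and 143 to 155 CPM at P10. Of the Down sites 5 were among the 10 in Plce1. Beta-cell markers had 8 sites in 4 of 15 genes, 3 Up and 0 Down (median 0.19), with sums of 126 to 170 and 95.9 to 122 CPM. Slc30a8, itself a granule gene above, gave 2 of these 3. Neither pair of sums overlapped. Ins1, Ins2, Pdx1, Iapp, Gcg and Sst held 0 distal sites inside, so these lists rest on less specific members.

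Markers of other cells were as follows. Immune genes had 56 sites, 3 Up and 10 Down (median -0.22), with overlapping sums of 243 to 283 CPM in adults and 242 to 280 CPM at P10. Mesenchymal and stellate genes had 37 sites, 7 Up and 1 Down (-0.01), with sums of 299 to 320 and 263 to 278 CPM that did not overlap. Duct genes, Cftr among them, had 23 sites, 3 Up and 1 Down (0.04), with overlapping sums of 176 to 216 and 142 to 180 CPM. Endothelial genes had 51 sites with 6 Up and 6 Down (0.07), acinar genes 14 with 1 and 1 (-0.29), Schwann and neural crest genes 6 with 0 and 1 (-0.25), and delta-cell genes 20 with 1 and 2 (-0.18). How far the makeup of the islets plays into the calls above was not tested.

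**Figure D5:**
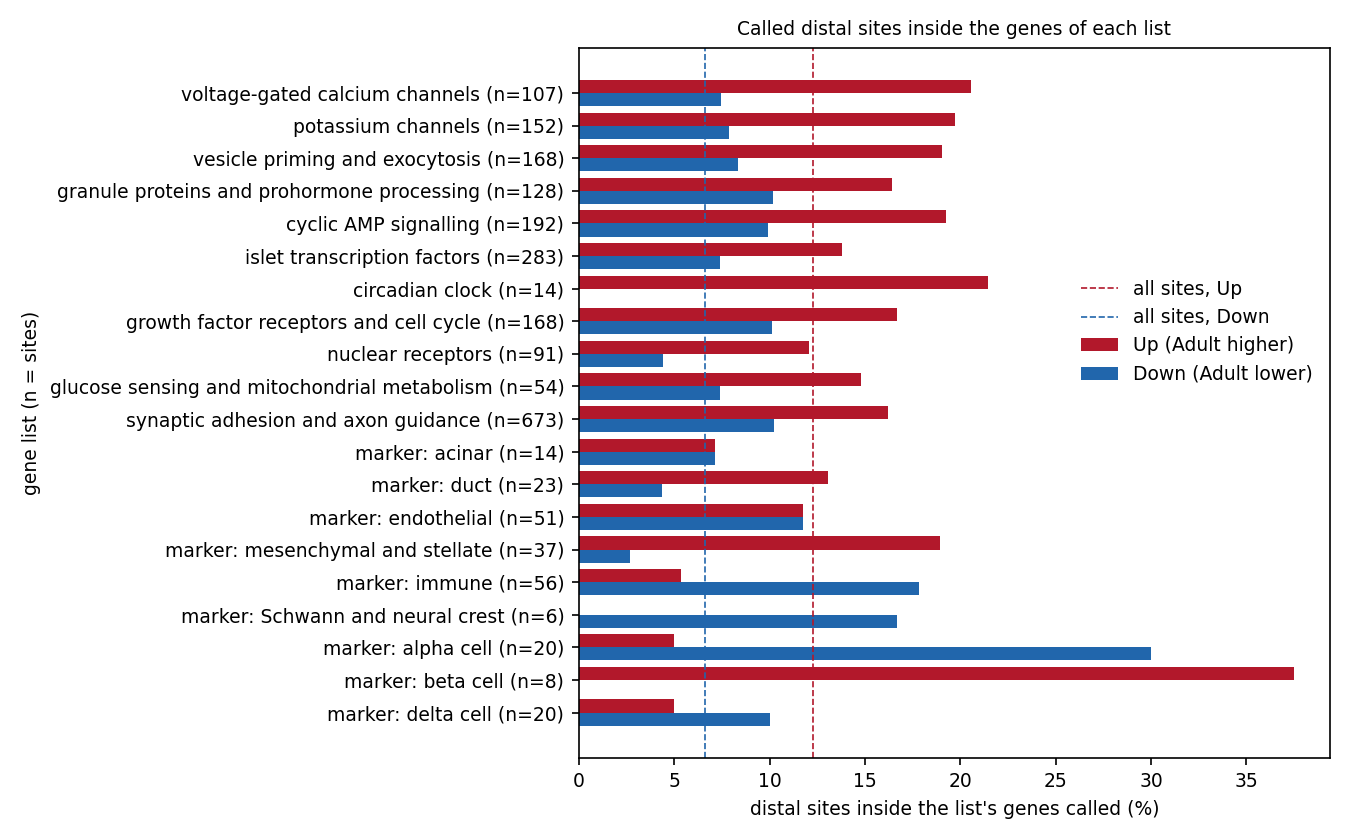
Percentage of distal sites inside the genes of each list called Up (red) or Down (blue) with TMM scaling, with the number of sites in brackets. Dashed lines mark the percentages over all sites, 12.3% Up and 6.63% Down. Those of all distal sites inside genes, 17.1% Up and 6.64% Down, are not drawn. Of the function lists, calcium channels (20.6% Up) and potassium channels (19.7%) stand highest among those with over 100 sites, and the marker lists rest on 6 to 56 sites each.

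At the far end of genes, 189 sites lay within 1 kb of the annotated end, with 15.3% Up and 8.47% Down and a median level of 5.11 CPM. After Mrs2 the smallest p was in Golga5, a Golgi matrix protein, on chromosome 6 from 135588907 to 135589145, 184 bp before the gene end. It had 23.0, 12.1 and 9.41 CPM in adults and 1.53, 0.999 and 2.27 CPM at P10 (log2 change 3.19 ± 0.33 SE, edgeR adjusted p = 5.03e-07). Frmd8 had 15.5, 10.7 and 7.35 CPM in adults and 3.77, 2.21 and 1.69 CPM at P10 at a site 297 bp before its end (2.12 ± 0.31 SE, edgeR adjusted p = 4.76e-05). At both, adult replicate 4 was the highest and adult replicate 6 the lowest of the adults.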

How the data were processed

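The authors aligned 100 bp paired reads to the rat genome Rn5 with BWA 0.7.13, dropped mitochondrial reads and those of mapping quality under 30, called peaks with MACS2 2.1.1 on the pooled libraries of each age, and joined them into 1 set. They deposited whole-number counts of Tn5 integrations per site and library (pyDNase), with the nearest gene, its span and the class of the site. Whether PCR duplicates were removed is not given in the sources used here, so errors cover the spread of these counts. The deposited columns of the authors' own edgeR comparison were not used.

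The 101941 entries were reduced to 101603 distinct sites. Of the distal sites inside genes, 149 lay in 2 genes and were counted once. Of 833 gene IDs without a symbol, 809 were named from RefSeq (GRCr8). No filter on low counts was applied, so all 17111 sites were tested. Counts were tested with edgeR 4.0.16 (TMM, quasi-likelihood F-test, Benjamini-Hochberg over all sites), with log2 changes ± SE. Sums per gene and class were tested in the same way. The log2 ratios, with 0.5 added to each sum, were tested with limma 3.58.1 (trend). Shares of libraries were compared by two-sided exact permutation tests (scipy). On simulated counts for the site comparison (101603 sites, 200 changed by 1 on the log2 scale) the test called 35.5% of the changed sites in the right direction and 22 unchanged ones. Far more sites were called in the real counts (12.3% Up and 6.63% Down of all sites), so the simulated figures do not carry over to them. Sites were named by a rule: the 10 Up and 10 Down with the smallest p and non-overlapping groups, 1 per gene with a proper symbol, the 10 strongest, the first 4 near gene ends and up to 4 per list. For genes it was the 10 with the most sites, 8 Up and 8 Down by sums (at least 3 sites) and 6 of each direction by ratio. Other sites and genes mentioned with counts alone come from the lists and were picked after their values were seen. Some items that these rules name are not reported here. The sites and lists were chosen with earlier results of these data known. Alternatives were DESeq2 1.42.0, limma voom, other scalings, a low-count filter, stricter thresholds, other reference sites and leaving out each library. The replicates are separate rats or litters.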

Additional observations from a re-analysis of the deposited data

How the results depend on the processing

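Changing the normalization to median-of-ratios, cyclic loess, DESeq2, limma voom or a low-count filter kept the counts of Up and Down sites within 1.5 times (2562 to 2919 Up, 936 to 1308 Down). With total reads as library sizes, distal sites inside genes gave 234 Up and 9249 Down, and summed genes 28 Up and 2857 Down. Column sums gave 464 Down summed genes. At a false discovery rate under 0.05 the counts were 1723 Up and 321 Down sites, 501 Up and 46 Down summed genes, and 65 genes falling against their start. Against proximal sites 344 genes rose and 230 fell. Leaving out each library gave 1844 to 3137 Up and 590 to 1162 Down sites, 535 to 1244 Up and 117 to 291 Down summed genes, and 643 to 822 rising and 96 to 154 falling ratios. The share of integrations stayed 0.837 to 1.16 percentage points higher in adults, and the log2 ratio to distal sites outside 0.03 to 0.11 higher. Alternatives chosen after seeing the data were leaving out crowded gene spans (2923 Up, 1135 Down) and chromosome 19 (2815 Up, 1134 Down), and column sums for the 10 strongest sites, which moved no level beyond its SD.

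Of 84 named differences, 63 kept their direction and call in every alternative run. Reversals occurred in 2, the Rorb site with total reads (-0.031) and the ratio of Hsd17b4 against proximal sites (0.094). The cause was not tested. No paired analysis was possible because adult and P10 libraries share no replicate numbers. Depth limits faint sites: 9.37% of the sites averaged under 20 counts.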

Other observations

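Chromosomes differed in how their distal sites inside genes moved, and chromosome 19 was singled out after its values were seen. Of its 337 sites in 103 genes, 111 (32.9%) were Up and 2 (0.593%) Down, with a median log2 change of 0.39. Distal sites outside genes on chromosome 19 were Up in 17.8% and Down in 2.08% (median 0.17), and its sites at gene starts had a median of 0.09. The share of integrations in distal sites inside genes that fell on chromosome 19 was 2.25%, 2.12% and 2.29% in adults and 1.85%, 1.76% and 1.70% at P10. These groups did not overlap (exact permutation p = 0.1, the smallest possible). As the chromosome was singled out from these same counts, this p is a description and no independent support. For distal sites outside genes the shares were 3.29%, 3.41% and 4.45% in adults and 3.51%, 3.05% and 3.53% at P10, which overlapped.

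At the other end, chromosome 3 had 11.5% Up and 13.4% Down among 1022 sites (median -0.07) and chromosome 10 had 8.45% Up and 6.87% Down among 568 (median -0.08). On chromosomes 18 and 20 the Up shares were 23.8% and 24.3%. In all 21 chromosomes listed the Up share of distal sites inside genes exceeded that of distal sites outside genes on the same chromosome.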
